A study of Mus musculus with 6 samples.

Results

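The genes described here are 40 genes of the lysosome and of autophagy, selected by gene symbol from RNA sequencing of P19 cells. P19 is a line of mouse embryonal carcinoma, a tumour of stem-like cells, and it can differentiate into heart muscle or neurons. All 40 symbols were found among the 34745 genes of the table, and all 40 had enough counts to be tested, among 13836 tested genes. They comprised 19 lysosomal genes, 18 autophagy genes and the 3 transcription factor genes Tfeb, Tfe3 and Mitf. The comparison was between 3 libraries of P19 cells treated with the peptide PDTLN1 and 3 libraries of P19 cells with no treatment, all grown in the same serum-containing medium. Dose and length of treatment are not in the labels, and the meaning of the code P50 in the treated titles is not given there. No label says that the libraries are separate cultures, and the spread behind the p-values may therefore be technical.

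Lysosomes are acidic organelles in which hydrolases break down material delivered by endocytosis and by autophagy. In autophagy a membrane forms around cytoplasmic cargo, proteins of the ATG8 family are joined to the lipid of that membrane, and the closed vesicle fuses with a lysosome. TFEB, TFE3 and MITF are related transcription factors. mTORC1, a nutrient-sensing kinase at the lysosomal surface, keeps TFEB and TFE3 out of the nucleus. In the nucleus these factors bind the CLEAR element, a sequence built around CACGTG in the promoters of many lysosomal genes.

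This core was in the promoters of a larger share of lysosomal than of autophagy members, a description of a few genes with no test. RefSeq promoter sequences (build GRCm38.p6, 250 bases before to 50 bases after a start site) matched 34 of the 40 members. CACGTG was present in 9 of 16 lysosomal genes, 2 of 15 autophagy genes and 0 of the 3 transcription factor genes, against 8.1% of all 27025 genes with a promoter. The 7-base form TCACGTG, searched on both strands and overlapping the core, was present in 8 lysosomal genes and 1 autophagy gene, against 4.3% of all genes. The longer CLEAR palindrome, the core with GT before it and AC after it, holds both shorter forms. It was found in none of the 34 members and in 0.4% of all genes. The stretches below carry all matches of 8 lysosomal members and of both autophagy members, with capitals marking CACGTG together with a T before it or an A after it. Not shown is the match of Ctsl, which began 236 bases before the start site and lacked the 7-base form. The stretches show a motif only and do not measure binding.
Lamp1, chr8:13159088-13159163, plus strand: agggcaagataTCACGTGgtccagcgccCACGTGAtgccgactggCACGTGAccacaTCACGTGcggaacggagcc
Mcoln1, chr8:3500436-3500491, plus strand: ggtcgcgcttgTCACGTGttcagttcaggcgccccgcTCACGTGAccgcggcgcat
Ctsa, chr2:164833749-164833795, plus strand: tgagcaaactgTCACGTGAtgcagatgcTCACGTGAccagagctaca
Gla, chrX:134601182-134601244, minus strand: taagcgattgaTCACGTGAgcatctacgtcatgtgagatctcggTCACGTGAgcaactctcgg
Ctsd, chr7:142387908-142387937, minus strand: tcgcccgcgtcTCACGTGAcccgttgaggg
Ctsd, second match, chr7:142388055-142388077, minus strand: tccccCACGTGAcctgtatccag
Glb1, chr9:114401018-114401047, plus strand: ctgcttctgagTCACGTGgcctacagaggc
Atp6v0d1, chr8:105566050-105566079, minus strand: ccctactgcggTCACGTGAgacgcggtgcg
Atp6v1a, chr16:44139373-44139402, minus strand: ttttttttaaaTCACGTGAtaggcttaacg
Atg7, chr6:114670952-114670981, plus strand: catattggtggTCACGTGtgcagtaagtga
Atg5, chr10:44268313-44268342, plus strand: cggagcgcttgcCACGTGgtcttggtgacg

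Lamp1 had 4 copies of the core, between 61 and 15 bases before its start site, and Ctsa, Ctsd, Gla and Mcoln1 had 2 each. The core of Atp6v0d1 began 3 bases before its start site.

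**Figure D1:**
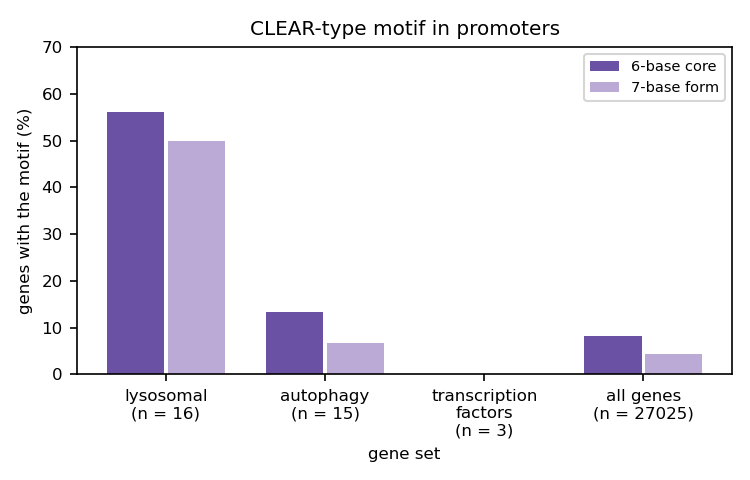
Share of genes with a promoter that holds the 6-base core CACGTG or the 7-base form TCACGTG (percent, vertical axis) in 4 gene sets (horizontal axis). The core was in 56.2% of lysosomal and 13.3% of autophagy members, against 8.1% of all genes.

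Total gene counts lay between 10381307 and 11663081 in the PDTLN1 libraries and between 10450134 and 11177756 in the controls. The libraries split in a way that did not follow treatment. On the first principal component, with 36.2% of the variance, PDTLN1 libraries 2 and 3 and control library 1 lay on the positive side, and PDTLN1 library 1 and control libraries 2 and 3 on the negative side. Whether both libraries numbered 1 stand under their own labels cannot be told from these files, and every fold change below takes the labels as given. A list of stress genes under ATF4 differed along the same split. Summed pluripotency markers lay at 2910 to 3040 CPM (counts relative to library size, scaled by the TMM method) after PDTLN1 and at 3020 to 3140 CPM in controls. Of these markers 8 of 10 could be tested, and 6 of the 8 lay lower after PDTLN1, where 50.3% of all genes did. The extraction text speaks of retinas, and of 10 retinal genes Crx, Arr3 and Opn1sw had 0 counts in all 6 libraries and none could be tested. The 10 macrophage and blood markers, of cells rich in lysosomes, summed to 13.6 to 16.0 CPM after PDTLN1 and 14.0 to 16.1 CPM in controls. None was at 0 in every library, 3 of the 10 could be tested, and 1 of the 3 lay lower after PDTLN1. The 8 fibroblast markers summed to 66.9 to 81.4 CPM after PDTLN1 and 86.0 to 90.0 CPM in controls. Of the 7 tested, 6 lay lower after PDTLN1, against 50.3% of all genes, and none of the 8 was at 0 in every library. The part of these cells in the values below was not tested. In bulk RNA, fewer cells of a type and less RNA per cell cannot be told apart.

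Set against untreated cells, 0 of the 40 members passed in PDTLN1-treated cells, where 0.0217% of all tested genes did. The test was the edgeR quasi-likelihood F test with a Benjamini-Hochberg threshold of 0.05. With the DESeq2 Wald test 0 members passed as well, against 0.0723% of all genes, and 1 had an unadjusted p under 0.05, against 2.65% of all genes. At an unadjusted edgeR p under 0.05 there was 1 member, Atp6ap1, against 3.99% of all genes. The 2 groups of libraries did not overlap for 1 member, Glb1, which was lower in every PDTLN1 library. Of all genes 9.79% had no overlap, 4.98% with PDTLN1 lower and 4.81% with PDTLN1 higher. For 32 of the 40 members the 95% interval of the fold change lay within 1.5-fold in both directions.

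**Figure D2:**
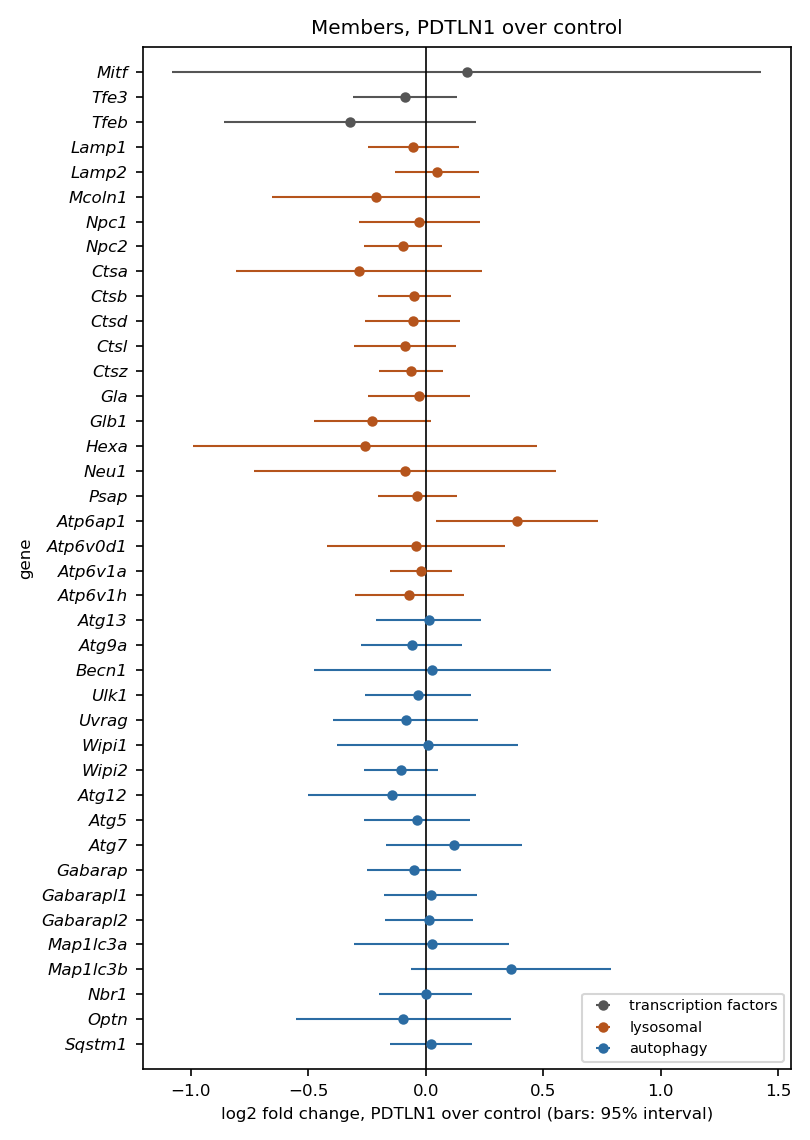
Log2 fold change of PDTLN1 over control (horizontal axis) for each of the 40 members (rows, by role), with bars for the 95% interval from edgeR's quasi-likelihood fit on 3 libraries per group. The intervals of all members except Atp6ap1 include 0, and 17 of the 19 lysosomal points lie below 0.

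Of the transcription factor genes, Tfe3 was the most abundant. It had 115, 137 and 104 CPM in PDTLN1 libraries 1 to 3, against 132, 123 and 124 CPM in control libraries 1 to 3. The highest and the lowest library were both treated ones, so the groups overlapped, and the log2 fold change was -0.09 with an SE of 0.10. Tfeb, the factor for which the CLEAR network was first described, was measured on few reads, at 28, 35 and 47 counts after PDTLN1 and 41, 37 and 54 counts in controls. That is 2.71, 3.04 and 4.01 CPM after PDTLN1, against 3.94, 3.47 and 4.84 CPM in controls, with overlap and a log2 fold change of -0.32 (SE 0.24). Mitf, better known from melanocytes and osteoclasts, varied more between libraries than any other member. Its values were 6.48, 2.09 and 8.03 CPM after PDTLN1, against 5.66, 6.56 and 2.51 CPM in controls. Each group held 1 library far below the rest of its group, PDTLN1 library 2 and control library 3. The log2 fold change was 0.17 with an SE of 0.53, -0.21 without PDTLN1 library 3 and -0.15 without control library 3.

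Among the lysosomal membrane and lipid export genes, 4 of 5 lay below 0 (2 of 5 without PDTLN1 library 2) and none passed. Lamp1 encodes a heavily glycosylated protein that lines the lysosomal membrane, and its promoter held the 4 motif copies shown above. It stood at 562, 461 and 489 CPM after PDTLN1, against 476, 555 and 538 CPM in controls. PDTLN1 library 2 was lowest and control library 1 next, with a log2 fold change of -0.05 (SE 0.09). Mcoln1, the calcium channel through which lysosomes signal to TFEB, had 57.8, 40.6 and 53.6 CPM after PDTLN1, against 43.9, 64.4 and 67.7 CPM in controls. The same pair of libraries was lowest, and the log2 fold change was -0.21 (SE 0.19); it was -0.38 without control library 1 and -0.08 without PDTLN1 library 2. Npc2, which hands cholesterol to NPC1 inside the lysosome, had 213, 177 and 207 CPM after PDTLN1, against 207, 217 and 214 CPM in controls. PDTLN1 library 2 alone stood below the other 5, and the log2 fold change was -0.10 (SE 0.07). Npc1 and Lamp2, a second major membrane protein, had log2 fold changes of -0.03 and 0.05.

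All 10 genes of lysosomal enzymes and their activator had log2 fold changes below 0, from -0.29 to -0.03, with none past the threshold; 50.3% of all tested genes lay below 0. Without PDTLN1 library 2, 6 of the 10 lay below 0. Glb1 (chr9:114401076-114474376, GRCm38, plus strand), the beta-galactosidase that is deficient in GM1 gangliosidosis, had 20.1, 18.2 and 19.2 CPM after PDTLN1, against 20.8, 24.4 and 22.1 CPM in controls. The mean was 19.2 ± 0.985 CPM in treated cells and 22.4 ± 1.80 CPM in untreated cells (SD, n = 3 each). Every treated library lay below every control, by a narrow margin between PDTLN1 library 1 and control library 1. The log2 fold change was -0.23 with an SE of 0.11, an unadjusted edgeR p of 0.0685 and an adjusted p of 0.989. Ctsa encodes cathepsin A, which also protects beta-galactosidase and the sialidase NEU1. Its values were 128, 75.9 and 97.6 CPM after PDTLN1, against 97.0, 138 and 131 CPM in controls, with PDTLN1 library 2 lowest. The groups overlapped, with a log2 fold change of -0.29 (SE 0.22), and values between -0.50, without PDTLN1 library 1, and -0.12, without PDTLN1 library 2. Ctsl, the cysteine protease cathepsin L, had the highest mean FPKM of all members, and 683, 553 and 619 CPM after PDTLN1, against 584, 677 and 711 CPM in controls. PDTLN1 library 2 and control library 1 were again the lowest, and the log2 fold change was -0.09 (SE 0.09).

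The remaining enzyme genes differed in how far the libraries spread. Neu1, the sialidase, had 62.5 CPM in PDTLN1 library 2 and 124 CPM in PDTLN1 library 1, a 1.99-fold range between 2 libraries of 1 group, with controls at 84.7 to 112 CPM. Psap, the precursor of the saposins that help enzymes reach sphingolipids, spanned a 1.15-fold range over the 6 libraries, and the cathepsin genes Ctsz and Ctsb 1.12-fold and 1.16-fold ranges. Gla, the alpha-galactosidase of Fabry disease, spanned the smallest range of all members, 1.09-fold, and its promoter held 2 motif copies. Hexa, a subunit of beta-hexosaminidase, was measured on only 15 to 30 counts per library, and its log2 fold change of -0.26 had an SE of 0.32. Ctsd, the aspartic protease cathepsin D, had a log2 fold change of -0.06.

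The proton pump (V-ATPase) acidifies the lysosome, and Atp6ap1 (chrX:74297097-74304721, GRCm38, plus strand) encodes an accessory subunit. Of the 4 pump genes 3 lay below 0, and 0 without PDTLN1 library 2. Atp6ap1 had 96.7, 69.5 and 74.7 CPM after PDTLN1, against 51.9, 61.1 and 70.9 CPM in controls. The mean was 80.3 ± 14.4 CPM in treated cells and 61.3 ± 9.48 CPM in untreated cells (SD, n = 3 each). PDTLN1 library 1 was highest and control library 1 lowest, and the groups overlapped because PDTLN1 library 2 lay below control library 3. The log2 fold change was 0.39 with an SE of 0.15, an unadjusted edgeR p of 0.0320 and an adjusted p of 0.989. Without PDTLN1 library 1 it was 0.23, and in the 4 libraries numbered 2 and 3, an alternative added on seeing the data, it was 0.13. In a fit with the first principal component as a covariate, added likewise, Atp6ap1 was the 1 member to pass, where 0.0578% of all genes did and 6.09% had an unadjusted p under 0.05. Its log2 fold change there was 0.51 and its edgeR adjusted p 0.0403; over all its alternatives the adjusted p lay between 0.0403 and 1. That component was computed from the same counts, so this p may be too small and cannot be taken at face value. Atp6v0d1, of the membrane part of the pump, had 120, 80.9 and 98.7 CPM after PDTLN1, against 85.0, 108 and 115 CPM in controls. As for Ctsl, PDTLN1 library 2 and control library 1 were lowest, and the log2 fold change was -0.04 (SE 0.16). Atp6v1a and Atp6v1h, of the part that hydrolyses ATP and regulates it, had log2 fold changes of -0.02 and -0.07.

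**Figure D3:**
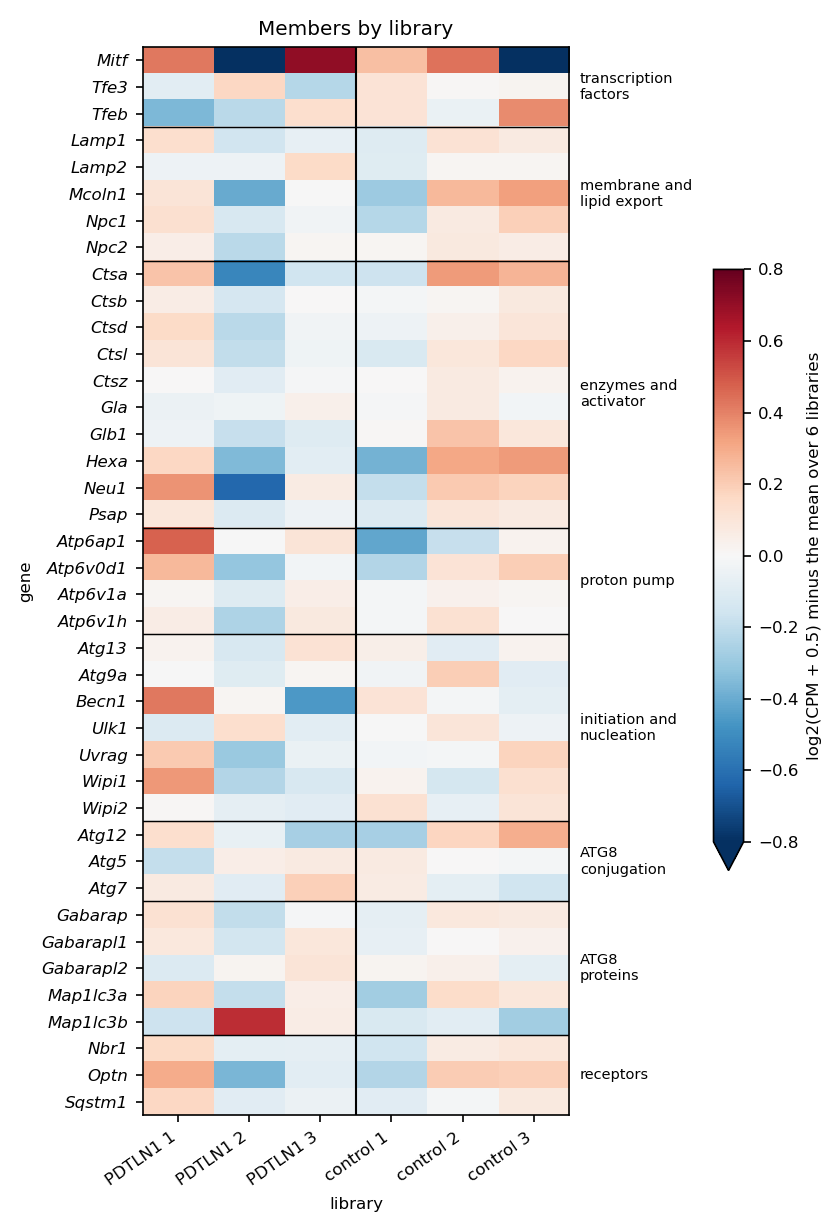
Log2(CPM + 0.5) of each member minus its mean over the 6 libraries (colour, from -0.8 to 0.8, with lower values in the darkest blue), for 40 genes (rows, by role) and 6 libraries (columns). Most lysosomal rows are blue in PDTLN1 library 2 and control library 1 and red in PDTLN1 library 1 and control libraries 2 and 3. Atp6ap1, Gla, Glb1 and Lamp2 are among the lysosomal rows that depart from this. Map1lc3b, an autophagy gene, is highest in PDTLN1 library 2.

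Among the 7 genes of autophagy initiation and nucleation, 3 lay above 0 and 4 below, from -0.10 to 0.03. Wipi2, which binds phosphatidylinositol 3-phosphate on the forming membrane and recruits the conjugation machinery, had the highest mean FPKM of them and the smallest p. It had 144, 136 and 134 CPM after PDTLN1, against 155, 136 and 153 CPM in controls. PDTLN1 libraries lay at or below the lower end of the controls except library 1, and the log2 fold change was -0.10 (SE 0.07). Becn1, the beclin subunit of the lipid kinase complex that starts the membrane, ranged from 79.6 CPM in PDTLN1 library 3 to 147 CPM in PDTLN1 library 1, with controls at 104 to 118 CPM. Its log2 fold change was 0.03, and 43.9% of its exonic bases lie in exons of the antisense gene Cntd1, so without knowledge of strand its counts are uncertain. The counts of 4 more members, with over 20% of exonic bases in exons of other genes, are uncertain too. These were Ctsd at 34.4%, Atg9a at 32.6%, Gabarapl1 at 28.3% and Ctsl at 26.8%. All these shares, that of Becn1 included, are of exons in the GENCODE M21 annotation. Ctsd and Ctsl have another position there than in the deposited data, so their shares may not describe the genes as counted. The overlapping gene is antisense for Gabarapl1 and on the same strand for Ctsd (Gm49369), and Atg9a and Ctsl overlap genes on both strands. For Ctsd, Atg9a and Ctsl, knowledge of strand alone would therefore not settle the counts. Ulk1 and Atg13, of the kinase complex upstream, had log2 fold changes of -0.03 and 0.01, and Atg9a, Uvrag and Wipi1 ones of -0.06, -0.09 and 0.01.

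The 3 conjugation genes stood at -0.14, -0.04 and 0.12. Atg12, a ubiquitin-like protein that is joined to ATG5, had 55.2, 48.2 and 41.8 CPM after PDTLN1, against 41.8, 56.6 and 61.6 CPM in controls. Control library 1 and PDTLN1 library 3 were lowest, and the log2 fold change of -0.14 (SE 0.16) was -0.29 without control library 1 and -0.03 without control library 3. Atg7, the E1-like enzyme that activates both ATG12 and the ATG8 proteins, had 17.6, 15.7 and 19.2 CPM after PDTLN1, against 17.6, 15.8 and 14.97 CPM in controls. The groups overlapped, with a log2 fold change of 0.12 (SE 0.13). Atg5, the partner of ATG12, had a log2 fold change of -0.04.

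Of the 5 ATG8 genes, 4 lay above 0, where 49.7% of all genes did, and none passed. Without PDTLN1 library 1, PDTLN1 library 3 or control library 1, 2 of the 5 lay above 0. Map1lc3b (chr8:121590361-121598760, GRCm38, plus strand) encodes LC3B, whose lipid-bound form is the usual marker of autophagosomes. It had 24.6, 41.9 and 28.9 CPM after PDTLN1, against 25.3, 26.1 and 22.8 CPM in controls. PDTLN1 library 2, the lowest library for most lysosomal genes, was the highest here, and PDTLN1 library 1 lay inside the controls. The log2 fold change was 0.36 with an SE of 0.19 and an unadjusted edgeR p of 0.0845, and 0.11 without PDTLN1 library 2. Of the 50-base stretches in its transcripts, 6.0% also occur in transcripts of other genes, among them Gm6055. Gabarap, which recruits the initiation kinase and acts late in autophagosome closure, had 147, 118 and 134 CPM after PDTLN1, against 129, 143 and 142 CPM in controls. PDTLN1 library 2 and control library 1 were lowest, with a log2 fold change of -0.05 (SE 0.09). Gabarapl1, Gabarapl2 and Map1lc3a had log2 fold changes of 0.02, 0.01 and 0.025.

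The cargo receptors tie ubiquitinated material to ATG8 proteins. Sqstm1, which encodes p62 and is itself degraded by autophagy, had 426, 357 and 368 CPM after PDTLN1, against 357, 376 and 401 CPM in controls. The groups overlapped throughout, and the log2 fold change was 0.02 (SE 0.08), with a 95% interval from -0.15 to 0.19. Optn, a receptor for damaged mitochondria and bacteria, had 148, 93.2 and 114 CPM after PDTLN1, against 102, 139 and 138 CPM in controls. PDTLN1 library 2 and control library 1 were lowest, as for Ctsl, and the log2 fold change was -0.10 (SE 0.19). Nbr1 stood at 266 ± 24.7 CPM after PDTLN1 and 266 ± 25.2 CPM in controls (SD, n = 3 each), with a log2 fold change of -7e-04.

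Set side by side, 17 of 19 lysosomal members had log2 fold changes below 0, with a median of -0.06, and 9 of 18 autophagy members did, with a median of 0.00. Over all tested genes the median was -0.001 and 50.3% lay below 0. The difference between the lists was not tested, because members of a list vary together and are not replicates. The mean of the 19 lysosomal genes around each gene's own mean was 0.12, -0.21 and -0.004 log2 units in PDTLN1 libraries 1 to 3, against -0.13, 0.11 and 0.12 in control libraries 1 to 3. The 18 autophagy genes were above and below 0 in the same libraries with a smaller amplitude, at 0.09, -0.07 and -0.03 after PDTLN1, against -0.05, 0.03 and 0.03 in controls. PDTLN1 library 1 therefore sat with control libraries 2 and 3 in both lists. Without PDTLN1 library 2 the lysosomal median was 0.006 with 8 of 19 members below 0, and 5 of 18 autophagy members lay below 0, where 49.6% of all genes did. Without PDTLN1 library 1 the lysosomal median was -0.14.

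PDTLN1 library 2 held the lowest value of 13 of the 19 lysosomal members and of 7 of the 18 autophagy members, against 21.5% of all tested genes. Control library 1 held the lowest value of 5 more lysosomal members. Control libraries 2 and 3 held the lowest value of no lysosomal member. The 27 ATF4-response genes were above and below 0 in the same libraries, at 0.38, -0.41 and -0.19 log2 units in PDTLN1 libraries 1 to 3, against -0.30, 0.16 and 0.35 in control libraries 1 to 3. Their part in the lysosomal values was not tested. In the 4 libraries numbered 2 and 3, set apart on seeing the data, the medians were -0.19 for lysosomal and -0.10 for autophagy members, and 14 members had an unadjusted edgeR p under 0.05, where 17.4% of all genes did. No member passed the adjustment in that comparison, where 0.652% of all genes did; the lowest edgeR adjusted p was 0.0700, for Ctsa at a log2 fold change of -0.64. There both treated libraries had positive and both control libraries negative values on the first component, and treatment cannot be told apart from it.

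**Figure D4:**
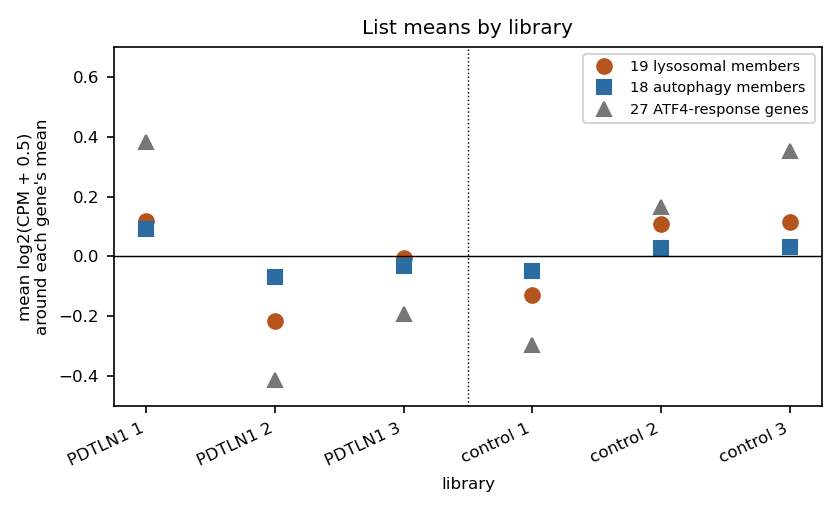
Mean log2(CPM + 0.5) around each gene's mean over the 6 libraries (vertical axis) for lysosomal members, autophagy members and ATF4-response genes in each library (horizontal axis, PDTLN1 left of control). All 3 lists are below 0 in PDTLN1 libraries 2 and 3 and control library 1, and above 0 in PDTLN1 library 1 and control libraries 2 and 3.

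Lysosomal members were also set apart by the motif. The 9 with CACGTG had a median log2 fold change of -0.056 and the 7 with a promoter without it had a median of -0.065. Below 0 lay 9 of the 9 and 5 of the 7, against 50.3% of all genes. When some 1 library was left out, Atp6v0d1, Atp6v1a, Ctsd, Gla and Lamp1 of the 9 turned sign. Of the 7, Lamp2, Neu1 and Psap did. In PDTLN1 library 2 the means of the 9 and the 7 were -0.24 and -0.20 log2 units. That library held the lowest value of 8 of the 9 and 3 of the 7, against 21.5% of all genes. Control library 1 held the lowest value of 0 of the 9 and 4 of the 7, against 16.2%. None of these differences was tested.

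Per length, lysosomal genes were among the most abundant members. In FPKM, the authors' values relative to gene length and library size, the mean over the 6 libraries was 323 for Ctsl, 227 for Lamp1, 97.6 for Psap, 87.0 for Ctsz, 79.3 for Ctsd and 63.1 for Npc2. Sqstm1, at 54.2 FPKM, was the highest autophagy gene, followed by Gabarap at 40.7 FPKM. The lowest were Tfeb at 0.397 FPKM, Mitf at 0.514 FPKM and Hexa at 1.11 FPKM. The median over the genes was 16.1 FPKM for lysosomal and 10.8 FPKM for autophagy members. The counts of Ctsl and Ctsd, and so their places, carry the uncertainty of the overlapping genes named above. Neighbours in this order overlapped in places: Psap ranged from 90.1 to 104 FPKM over the 6 libraries, Ctsz from 81.8 to 91.1 FPKM and Ctsd from 68.1 to 87.6 FPKM.

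The order of genes depends on the length used. For 28 of the 40 members the length implied by count and FPKM equalled, to the base, the sum of all distinct exons in the GENCODE M21 annotation, in which overlapping exons of different transcripts are counted repeatedly. Genes with many transcripts are therefore set lower than by the merged exons: the implied length was 20656 bases for Tfe3 and 9261 merged, 6617 and 3026 for Atp6ap1, and 7013 and 3356 for Sqstm1. Over merged exons, CPM per kilobase was 192 for Lamp1, 142 for Psap, 131 for Ctsd, 113 for Sqstm1 and 98.1 for Ctsl, for which M21 has 6489 merged bases and the files imply 1971. Sqstm1 moved from place 7 to place 4 of the 40, and Ctsl from place 1 to place 5. For Ctsl the implied length is the shorter one, which repeated counting of exons does not give. Of the 40 members 30 had the same position in M21 as in the deposited data, and Ctsl, Ctsd and Lamp1 were not among them. Counts and merged length may then come from different gene models, so the places of these genes over merged exons are uncertain. Comparisons between libraries are not touched by this, since each gene has 1 length in all libraries.

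**Figure D5:**
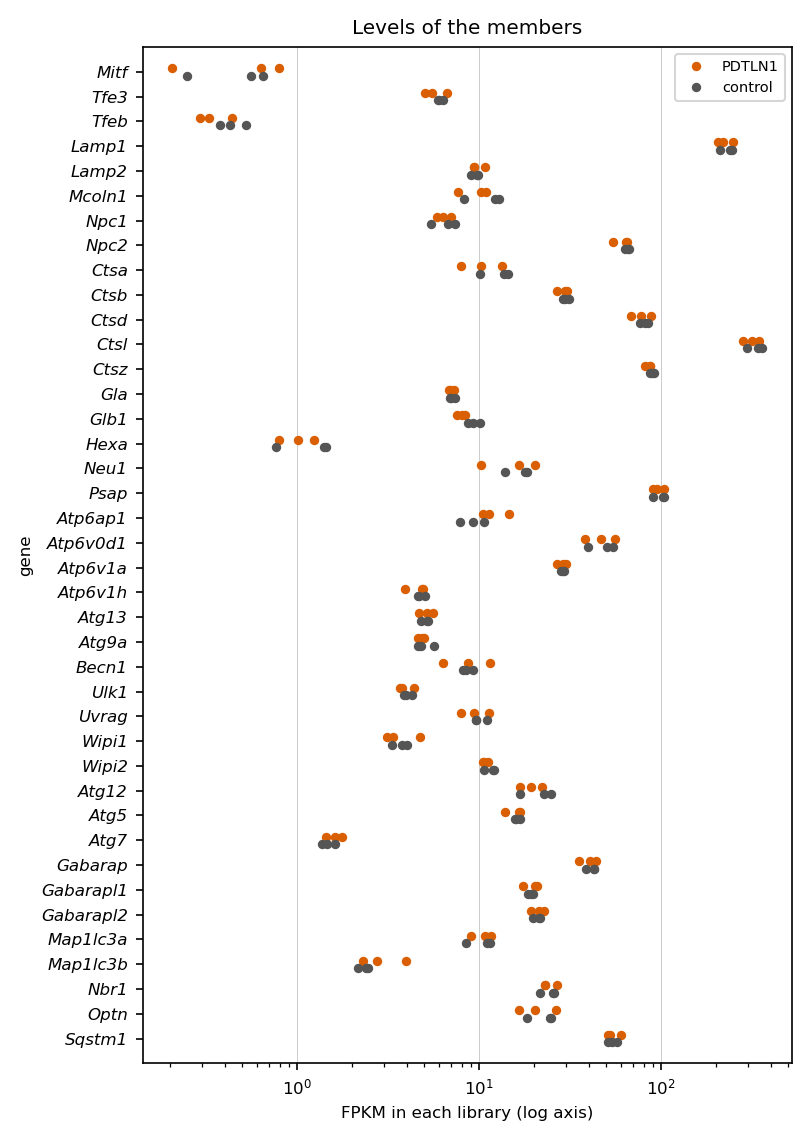
FPKM of each member in each library (horizontal log axis; PDTLN1 in orange above control in grey) for 40 genes (rows, by role). Levels run from below 1 for Tfeb and Mitf to above 200 for Lamp1 and Ctsl.

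The other genes of these pathways, 167 in 7 lists, were described in the same way. Of the 162 that could be tested, 0 passed edgeR's adjusted threshold and 1 had an unadjusted edgeR p under 0.05, against 3.99% of all genes. The groups did not overlap in 10 of the 162, against 9.79% of all genes. The gene with the low p was Atp6v0c, the proteolipid of the pump's rotor, at 92.7 CPM after PDTLN1 and 107 CPM in controls, a log2 fold change of -0.20 (SE 0.08) that did not pass. In the 4 lysosomal lists 59 of 86 tested genes lay below 0 with a median of -0.04, and in the 2 autophagy lists 21 of 50 did with a median of 0.02. Without PDTLN1 library 2, 34 of the 86 lysosomal and 15 of the 50 autophagy genes lay below 0. Other lysosomal membrane genes had a median of -0.08, with 19 of 23 below 0, and 12 of 23 without PDTLN1 library 2. The amino acid transporter Slc36a1 stood at -0.59 (SE 0.34) and the sialic acid exporter Slc17a5 at -0.28 (SE 0.17), neither past the threshold. Slc36a1 had 37.6 CPM in control library 1 and 14.4 to 19.2 CPM in the other 5 libraries. Among the hydrolases, where 24 of 39 lay below 0 and 14 of 39 without PDTLN1 library 2, Aga stood at 0.26 and the lysosomal nuclease Dnase2a at -0.30.

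Sorting genes had 7 of 11 below 0, where 50.3% of all genes did, and 5 of 11 without PDTLN1 library 2. The 2 with the smallest p lay above 0 without passing, the mannose 6-phosphate receptor M6pr at 0.09 and sortilin, Sort1, at 0.09. Genes of mTORC1 and its regulators at the lysosome had 16 of 26 below 0 and a median of -0.04. Without PDTLN1 library 2, 12 of the 26 lay below 0 and the median was 0.014. The arginine sensor Castor1 (Gatsl3 in the table) stood at -0.23 and Tsc1, of the complex that restrains mTORC1, at -0.11. Other autophagy machinery had a median of 0.02 with 21 of 35 above 0, where 49.7% of all genes were. That count was 24 without PDTLN1 library 2 and 17 without control library 1. Ulk2, a second initiation kinase, stood at 0.24 (SE 0.11) and the ATG8 protease Atg4b at 0.18 (SE 0.09), both among the 10 genes with no overlap between groups, and neither passed. Selective autophagy genes had a median of 0.01, with Calcoco1 at -0.19 and Wdfy3 at 0.17. In the 86 lysosomal pathway genes the list means were 0.10, -0.15 and -0.02 log2 units in PDTLN1 libraries 1 to 3, against -0.06, 0.06 and 0.07 in control libraries 1 to 3, with the same high and low libraries as for the lysosomal members.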

How the data were processed

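Gene counts and FPKM came from RNA sequencing of 3 PDTLN1-treated and 3 control libraries of P19 cells, prepared with an Illumina TruSeq kit as the labels' protocols say. Gene counts were deposited by the authors as raw whole numbers per gene and library. The FPKM values deposited by the authors relate those counts to gene length and library size, and were used only for levels. Bowtie 0.12.2 and the builds mm8 and mm9 are named, without a role, per the submitters' processing notes; for the counter, strand setting, multiple matches and annotation, nothing was found in the sources used here. Of 34267 identifiers found in GENCODE M21 (GRCm38), 80.8% had the same position. Most deposited gene positions are thus those of GRCm38, which differs from the builds mm8 and mm9 in the processing notes.

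Groups came from the treatment labels and columns from sample titles. Counts were fitted with edgeR 4.0.16 in R 4.3.3 over all 13836 genes kept by filterByExpr, with TMM scaling, robust glmQLFit and two-sided glmQLFTest, and Benjamini-Hochberg adjustment over those genes (threshold 0.05). Each SE was obtained from the log2 fold change and the F statistic (change over root F), and 95% intervals use the fit's t quantiles. The biological coefficient of variation was 0.126. Centred values are log2(CPM + 0.5) minus the gene's mean. Lists are described by counts and medians without a test. The steps were tested on simulated data. Counts of 3 bound what 0 allows, 0.256 to 0.290 CPM, for counting error only.

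Values in every library are given for the 8 members with the smallest p, the most abundant member (FPKM) and the member with the smallest p in each role, and the 3 transcription factor genes, 18 in all; other members named with values were chosen after these were seen. The members, lists and tests were chosen with earlier results of these data known. Other settings were a block on replicate number, each library left out in turn, DESeq2 1.42.0 (Wald test, and its size factors in edgeR), library size alone, no filter, and at least 1 CPM in 3 libraries; leaving out both libraries numbered 1 and the first component as a covariate were added after seeing the data. Promoter motifs were counted on both strands of RefSeq sequences. A comparison of ATG8 protein sequences that had been planned was not analysed here.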

Additional observations from a re-analysis of the deposited data

How the results depend on the processing

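No member passed under the other scalings, filters and tools, the block or any left-out library, and 1, Atp6ap1, did with the first principal component as a covariate (log2 fold change 0.514, edgeR adjusted p 0.0403). Called genes over the whole table numbered 3, and 1 with the replicate number as a block, 8 without a low-count filter, 10 with the DESeq2 Wald test, 2 to 13 without any 1 library, 91 with both libraries numbered 1 left out and 8 with the first component as a covariate. The lysosomal median, -0.056, ranged from -0.139 to 0.006 without any 1 library. The autophagy median, 0.004, ranged from -0.067 to 0.038, and it was -0.103 with both libraries numbered 1 left out. Over the 40 members, 26 turned sign, without a call, when some 1 library was left out, 11 of them lysosomal, 14 autophagy genes and 1 a transcription factor gene; 10 did with the first component and 6 with both libraries numbered 1 left out. Of the 18 members given in every library, those that turned were Atp6v0d1 (-0.195 to 0.088 without any 1 library, 0.095 with the first component), Gabarap (-0.131 to 0.028, and 0.012), Lamp1 (-0.139 to 0.007, and 0.017), Optn (-0.289 to 0.050, and 0.057), Mitf (-0.207 to 0.569) and Sqstm1 (-0.060 to 0.069, and -0.102 with both libraries numbered 1 left out); the cause was not tested. Depth limits Tfeb, Mitf and Hexa most, at 15 to 94 counts per library. Libraries with the same number were not alike in their deviations from the group means, with correlations over genes of -0.38, -0.15 and -0.12. These values take the labels as given, so they cannot decide whether equal numbers mark pairs. The block moved the lysosomal median to -0.063 and the autophagy median to -0.009.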
